A study of Mus musculus with 2 samples.

Results

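The genes described here encode the auxiliary subunits of voltage-gated calcium channels: the beta subunits Cacnb1, Cacnb2, Cacnb3 and Cacnb4, and the alpha2delta subunits Cacna2d1, Cacna2d2, Cacna2d3 and Cacna2d4. They were chosen by gene symbol, as 8 of the 55536 annotated genes measured, and they have 77 annotated transcripts. The RNA came from the hippocampus (a layer of it, as labelled) of females aged 25 days, and each library was made from 300 ng of total RNA with ERCC spike-ins. All animals were of the strain B6CASTF1/J, an F1 hybrid of C57BL/6 and the wild-derived CAST strain, and no allele, agent or treatment is labelled. The labels give a single group of 2 libraries, biological replicates 1 and 2, with separate biosamples but the same donor entry, so the spread between them may be technical. There is no other group, so no test between conditions exists, and the 2 libraries are set against each other as a description.

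A voltage-gated calcium channel is built around a pore-forming alpha1 subunit. Beta subunits are cytoplasmic proteins that bind an intracellular loop of the high-voltage-activated pores, bring them to the membrane and shape their gating. Alpha2delta subunits are glycoproteins on the outer face of the membrane, each cut from a single precursor, that raise the number of channels at the surface and at presynaptic terminals, and those from Cacna2d1 and Cacna2d2 bind gabapentin and pregabalin. T-type, low-voltage-activated pores can work without either kind of subunit.

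The library of replicate 1 held 34919989 expected counts and that of replicate 2 held 41206890, of which the 8 genes took 0.0863% and 0.0854%. Levels are TPM, a value per transcript length that is scaled to the same total in each library, written as mean ± SD over both libraries. In bulk tissue, fewer cells of a type and less RNA per cell cannot be told apart. The tissue label was checked with 7 genes that mark hippocampal fields, such as Wfs1, Rgs14 and Prox1, and all 7 stood above 30 TPM in both libraries. Summed levels of skeletal muscle markers were 2.47 TPM in replicate 1 and 3.06 in replicate 2, nearly all of it Acta1, while Ckm and Myh4 stayed under 0.1.

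The sequences of 3 beta subunit genes show where their transcripts differ, since each begins its protein from alternative first coding exons. They are printed from the start codon, on the coding strand, from the GENCODE M21 transcripts on mm10. Capitals mark the coding part of the first coding exon, and lower case the coding bases that follow it. In Cacnb3 the transcripts Cacnb3-202 (coding part chr15:98632479-98632520, plus strand) and Cacnb3-206 (coding part chr15:98635169-98635213, plus strand) begin differently and then run together:
Cacnb3-206: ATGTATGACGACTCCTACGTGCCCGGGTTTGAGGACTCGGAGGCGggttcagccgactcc
Cacnb3-202: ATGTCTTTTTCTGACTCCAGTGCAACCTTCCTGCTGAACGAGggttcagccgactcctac
In Cacnb4, on the minus strand, Cacnb4-202 (coding part chr2:52558269-52558313), Cacnb4-201 (coding part chr2:52676271-52676330) and Cacnb4-203 (coding part chr2:52556202-52556207) begin from 3 start codons. Cacnb4-202 and Cacnb4-203 then run together. The bases printed for Cacnb4-201 stop before a second coding exon of 84 bases that neither of them has:
Cacnb4-202: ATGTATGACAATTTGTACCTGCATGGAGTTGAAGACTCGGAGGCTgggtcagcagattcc
Cacnb4-201: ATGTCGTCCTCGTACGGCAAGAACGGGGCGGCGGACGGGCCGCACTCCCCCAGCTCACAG
Cacnb4-203: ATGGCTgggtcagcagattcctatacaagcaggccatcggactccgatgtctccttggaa
In Cacnb2, on the plus strand, Cacnb2-203 (coding part chr2:14604451-14604558) and Cacnb2-202 (coding part chr2:14873877-14873945) begin differently too. Cacnb2-203 continues into an exon of 93 bases that Cacnb2-202 lacks, so the bases printed for it do not reach the sequence that both share:
Cacnb2-203: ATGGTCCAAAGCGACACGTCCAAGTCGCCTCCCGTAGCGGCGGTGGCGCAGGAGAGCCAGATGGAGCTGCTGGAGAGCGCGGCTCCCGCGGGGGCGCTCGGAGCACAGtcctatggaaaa
Cacnb2-202: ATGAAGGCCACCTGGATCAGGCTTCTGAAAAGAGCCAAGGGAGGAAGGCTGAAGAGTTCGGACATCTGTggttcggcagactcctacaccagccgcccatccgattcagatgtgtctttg

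The coding parts of the first coding exons of Cacnb3-206 and Cacnb4-202 are alike in length and letters. Both have 45 bases, and 34 of the 45 positions hold the same base. Over the whole coding sequence of their leading transcripts, the beta genes were 70.5% to 74% identical to each other at aligned bases. The alpha2delta genes fell into 2 closer pairs, Cacna2d1 with Cacna2d2 (67.3%) and Cacna2d3 with Cacna2d4 (68.6%), while the other 4 pairs lay between 62% and 62.7%. These are identities of reference sequences over global alignments and carry no measurement.

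**Figure D1:**
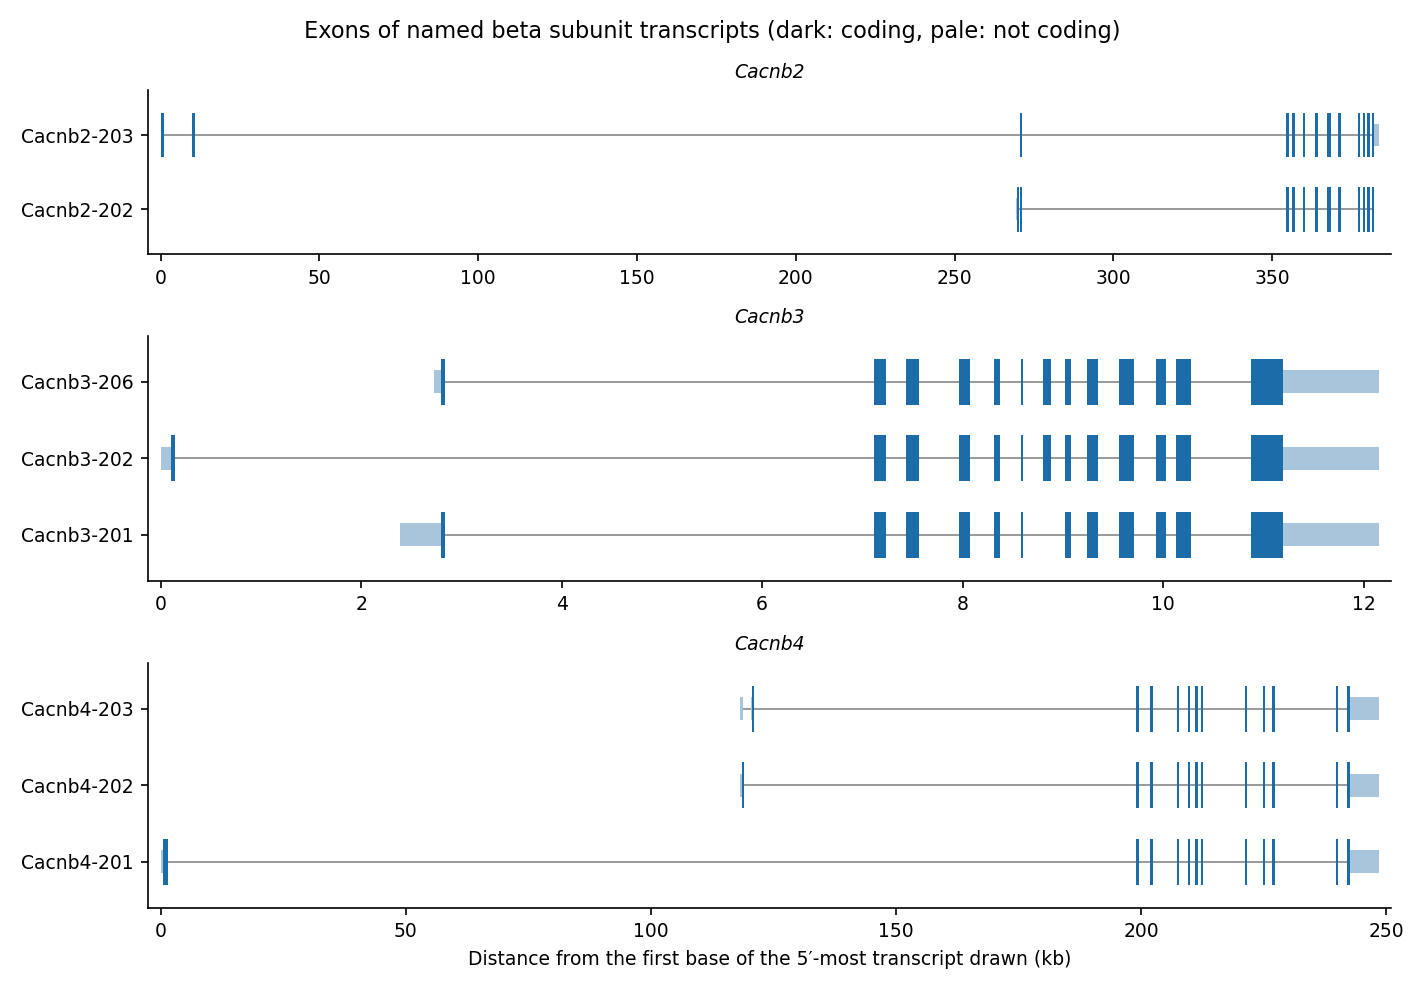
Exons of named transcripts of Cacnb2, Cacnb3 and Cacnb4 against distance in kb from the first base of the 5′-most transcript drawn, with coding parts dark and other exon parts pale; the narrowest exons are drawn at a minimum width so that they can be seen. The coding start of Cacnb4-202 lies 119 kb and that of Cacnb4-203 121 kb into the gene, that of Cacnb2-202 lies 270 kb in, and that of Cacnb3-206 lies 2.79 kb in.

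All 4 beta genes were transcribed in the hippocampus, and Cacnb3 stood highest. Cacnb3 (ENSMUSG00000003352.14, chromosome 15, 98630840 to 98644529) encodes a beta subunit found with N-type channels in brain. It was at 86.4 TPM in replicate 1 and 84.72 TPM in replicate 2 (85.56 ± 1.19, n = 2), from 5039 and 6190 counts. In TPM the libraries differed by less for Cacnb3 than for any other beta gene, whereas by TMM-scaled counts its ratio lay furthest from 1 of the beta genes.

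Cacnb1 (ENSMUSG00000020882.17, chromosome 11, 98001508 to 98023034) encodes the beta subunit that skeletal muscle needs for excitation-contraction coupling, and neurons use it as well. It was at 62.49 TPM in replicate 1 and 56.03 TPM in replicate 2 (59.26 ± 4.57, n = 2). Cacnb2 (ENSMUSG00000057914.15, chromosome 2, 14603088 to 14987908), whose product is the main beta subunit of heart, was at 37.04 and 32.02 TPM (34.53 ± 3.55, n = 2). Cacnb4 (ENSMUSG00000017412.15, chromosome 2, 52428320 to 52676831), the gene mutated in the lethargic mouse with ataxia and absence seizures, was at 33.45 and 30.15 TPM (31.8 ± 2.33, n = 2). Both libraries placed these 3 genes in the same order, but the values of Cacnb2 and Cacnb4 overlapped and their difference of 2.73 TPM was smaller than the SD of Cacnb2. With protein-coding transcripts alone that pair turned round, Cacnb4 at 26.54 TPM and Cacnb2 at 20.73.

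The alpha2delta family was more uneven. Cacna2d1 (ENSMUSG00000040118.15, chromosome 5, 15934691 to 16374511), the gene of the main gabapentin receptor, was at 61.2 TPM in replicate 1 and 55.75 TPM in replicate 2 (58.48 ± 3.85, n = 2). It had more counts than any other of the 8 genes, 8598 and 9951. Cacna2d3 (ENSMUSG00000021991.9, chromosome 14, 28904943 to 29721864), known for roles in hearing and in pain sensing, was at 43.75 and 39.82 TPM (41.78 ± 2.78, n = 2). These 2 genes carried 92.3% of the family's RNA in replicate 1 and 92.4% in replicate 2.

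Cacna2d2 (ENSMUSG00000010066.15, chromosome 9, 107399612 to 107529343), which is mutated in the ataxic and epileptic ducky mouse and is abundant in Purkinje cells, was far lower, at 7.49 and 6.83 TPM (7.16 ± 0.467, n = 2). Cacna2d4 (ENSMUSG00000041460.14, chromosome 6, 119236526 to 119352407), the photoreceptor alpha2delta gene, was close to absent, at 1.27 and 1.03 TPM (1.15 ± 0.17, n = 2) from 84 and 59 counts. Its level ranked 12687th of 22015 nuclear protein-coding genes, where Cacnb3 ranked 1011th. The neighbouring Lrtm2 lies within Cacna2d4 on the opposite strand without sharing exon bases, at 15.84 and 14.46 TPM, and its part in the few counts of Cacna2d4 was not tested.

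In descending order the levels ran Cacnb3, Cacnb1, Cacna2d1, Cacna2d3, Cacnb2, Cacnb4, Cacna2d2 and Cacna2d4. Of the 7 steps in that order, 5 were larger than the SD of either gene, and 2 were not: Cacnb1 over Cacna2d1, by 0.785 TPM, and Cacnb2 over Cacnb4. The second deposited quantification, summed per gene, gave the same order for all 8 genes. Its values were higher throughout, such as 133.1 TPM in replicate 1 and 133.9 in replicate 2 for Cacnb3. The ratio of the second over the first quantification had a median of 1.56 over the 7 members with at least 200 counts, beside 1.63 over 12098 protein-coding genes.

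**Figure D2:**
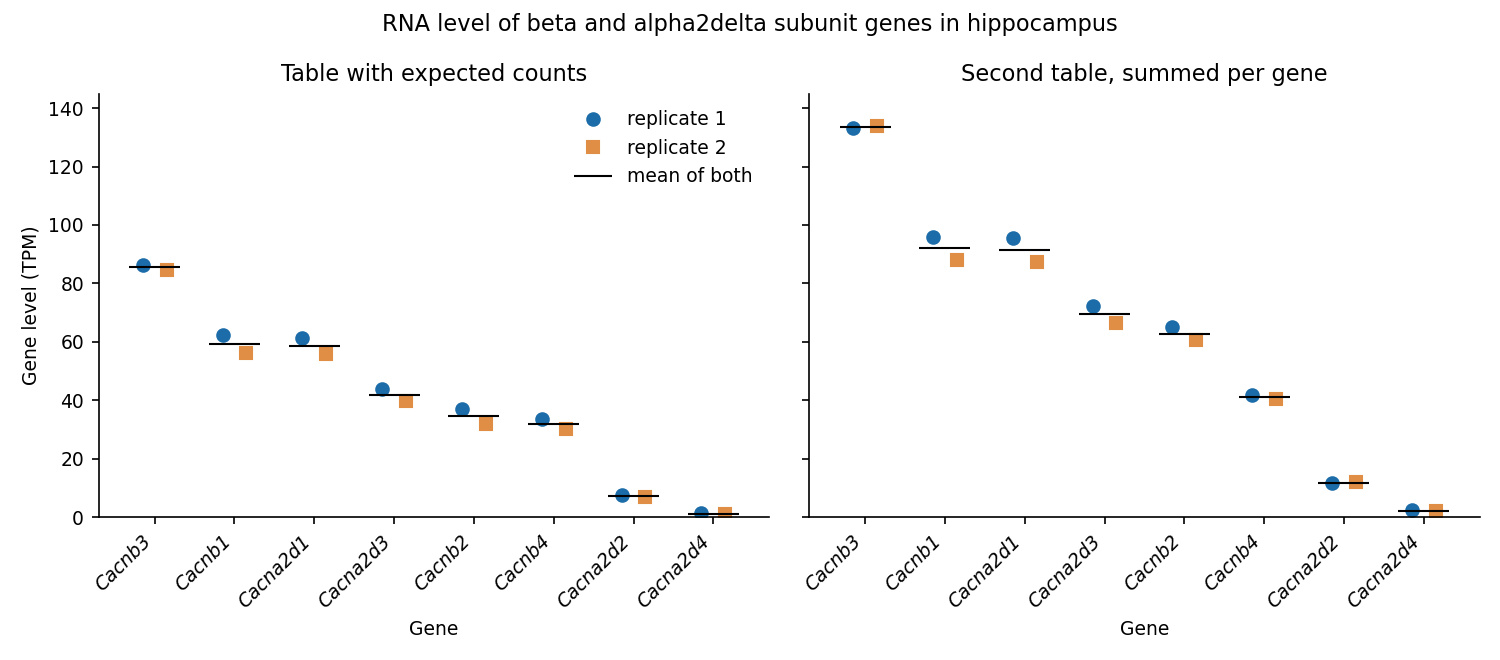
Level of each gene in TPM, in the table with expected counts (left) and in the second deposited table summed per gene (right), with replicate 1 as circles, replicate 2 as squares and a line at the mean of both. Cacnb3 stands highest and Cacna2d4 lowest in both tables, and the genes keep the same order from left to right.

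Summed over the family, beta RNA was at 219.4 TPM in replicate 1 and 202.9 TPM in replicate 2 (211.2 ± 11.6, n = 2), and alpha2delta RNA at 113.7 and 103.4 TPM (108.6 ± 7.27, n = 2). Beta RNA was thus about the same multiple of alpha2delta RNA in each library, 1.929 and 1.962 times. Cacnb3 held 39.38% of the beta sum in replicate 1 and 41.75% in replicate 2. Cacnb1 held 28.48% and 27.61%, Cacnb2 16.88% and 15.78%, and Cacnb4 15.25% and 14.86%. No beta gene held most of the family RNA in either table. The lowest shares were those of Cacnb4 here and in the second quantification, where it held 12.42% and 12.5%, and of Cacnb2 from protein-coding transcripts alone, at 10.94% and 11.25%. Within the alpha2delta sum, Cacna2d1 held 53.82% and 53.9%, Cacna2d3 38.48% and 38.5%, and Cacna2d2 6.587% and 6.603%. Shares of the alpha2delta sum moved by at most 0.121 percentage points between libraries and those of the beta sum by up to 2.37. These moves were up to 0.73 and 1.81 points in the second quantification, and up to 0.937 and 1.75 from protein-coding transcripts alone.

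The pores these subunits serve were measured in the same libraries. Among the high-voltage-activated pores, Cacna1a (P/Q-type) reached 99.67 TPM in replicate 1 and 71.14 TPM in replicate 2, and Cacna1e (R-type) reached 94.9 and 67.16. Cacna1b (N-type), Cacna1c and Cacna1d (both L-type) lay between 14.6 and 36.46 TPM. Cacna1s, the muscle pore, was at 0.34 and 0.18 TPM, and Cacna1f, the retinal pore, at 0.02 and 0.01. These 7 pore genes summed to 287.4 TPM in replicate 1 and 210.5 TPM in replicate 2.

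Beta RNA per TPM of high-voltage-activated pore RNA was therefore 0.7633 in replicate 1 and 0.9639 in replicate 2, and alpha2delta RNA per pore TPM was 0.3957 and 0.4913. Both ratios were lower in replicate 1, and the pores moved further between libraries than the auxiliary genes did. Counting protein-coding transcripts alone, the beta ratio was 0.993 and 1.245 and the alpha2delta ratio 0.5205 and 0.6452. The beta sum was thus below the pore sum in both libraries by gene, but above it in replicate 2 when protein-coding transcripts alone were counted.

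Partners of the auxiliary subunits were present at different levels. Rims1, which encodes a presynaptic scaffold protein that binds beta subunits, reached 109.93 TPM in replicate 1 and 96.38 TPM in replicate 2, and its relative Rims2 reached 36.12 and 32.76. Rimbp2, listed with them as a presynaptic partner, reached 60.7 and 47.8. The RGK GTPases, small proteins that bind beta subunits and inhibit the channels, were scarce: of 4 genes only Rem2, at 11.16 and 9.36 TPM, exceeded 1.5 TPM in either library. Cachd1, an alpha2delta-like gene, was at 16.01 and 12.2 TPM. Lrp1 was the highest gene listed as a relative or ligand of alpha2delta, at 130.99 and 105.05 TPM. Of the thrombospondin genes, whose products bind the alpha2delta subunit from Cacna2d1, Thbs3 was highest at 19.53 and 15.04 TPM, followed by Thbs4 at 8.39 and 9.29, while Thbs1, Thbs2 and Comp stayed under 1.5 TPM.

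In TPM, all 8 genes were higher in replicate 1, but none by 2-fold. Of the 7 with at least 200 counts over both libraries, 0 passed a 2-fold difference, where 0.825% of 12962 genes did, and 7 were higher in replicate 1, where 64.9% of those genes and 64.4% of the 12099 nuclear protein-coding ones were. The ratios of replicate 1 over replicate 2 lay between 1.02 for Cacnb3 (95% counting interval 0.982 to 1.06) and 1.16 for Cacnb2 (1.1 to 1.22). For Cacna2d1 the ratio was 1.1 (1.07 to 1.13). That of Cacna2d4, with 143 counts over both libraries, was 1.23 in TPM with an interval of 0.873 to 1.75, which includes 1. By TMM-scaled counts its ratio was 1.67 with an interval of 1.19 to 2.38, which does not, and the deposited effective length of the gene was 2755.92 bases in replicate 1 and 1905.07 bases in replicate 2. Counting intervals cover counting error only.

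The direction depended on the scaling for 3 of these 8 genes. Counts scaled by TMM gave ratios of 0.957 for Cacnb3 and 0.983 for Cacna2d3, and those scaled by DESeq2 size factors gave 0.943 and 0.97. The ratio of Cacnb3 was above 1 in only 1 of 6 scalings and transcript sets, and those of Cacna2d2 and Cacna2d3 in 4 of 6. For Cacnb1, Cacnb2, Cacnb4 and Cacna2d1 it was at or above 1 in all 6, with a lowest value of 1 or 1.01. The median log2 ratio of the 7 members was 0.14 in TPM and 0.02 by TMM, beside 0.07 and -0.03 over all genes tested.

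The pore genes moved more. In TPM, 7 of the 8 pore genes with at least 200 counts had a higher ratio than Cacnb2, the highest of the 7 members, with Cacna1g at 1.51, Cacna1d at 1.45, Cacna1e at 1.41 and Cacna1a at 1.4. Cacna1i, at 1.12, was the exception. By TMM the same count was 7 of 8, with Cacna1e at 1.29 and Cacna1a at 1.28 while the 7 members lay between 0.957 and 1.03. Cacna1d was at 1.22 by TMM, and Cacna1g, the highest in TPM, fell to 1.09. The deposited effective length of Cacna1g was 4178.63 bases in replicate 1 and 5464.15 bases in replicate 2. The median log2 ratio of these 8 pore genes was 0.46 in TPM and 0.23 by TMM, beside 0.07 and -0.03 over all genes tested. The share of all genes with a ratio above that of Cacnb2 was not computed.

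**Figure D3:**
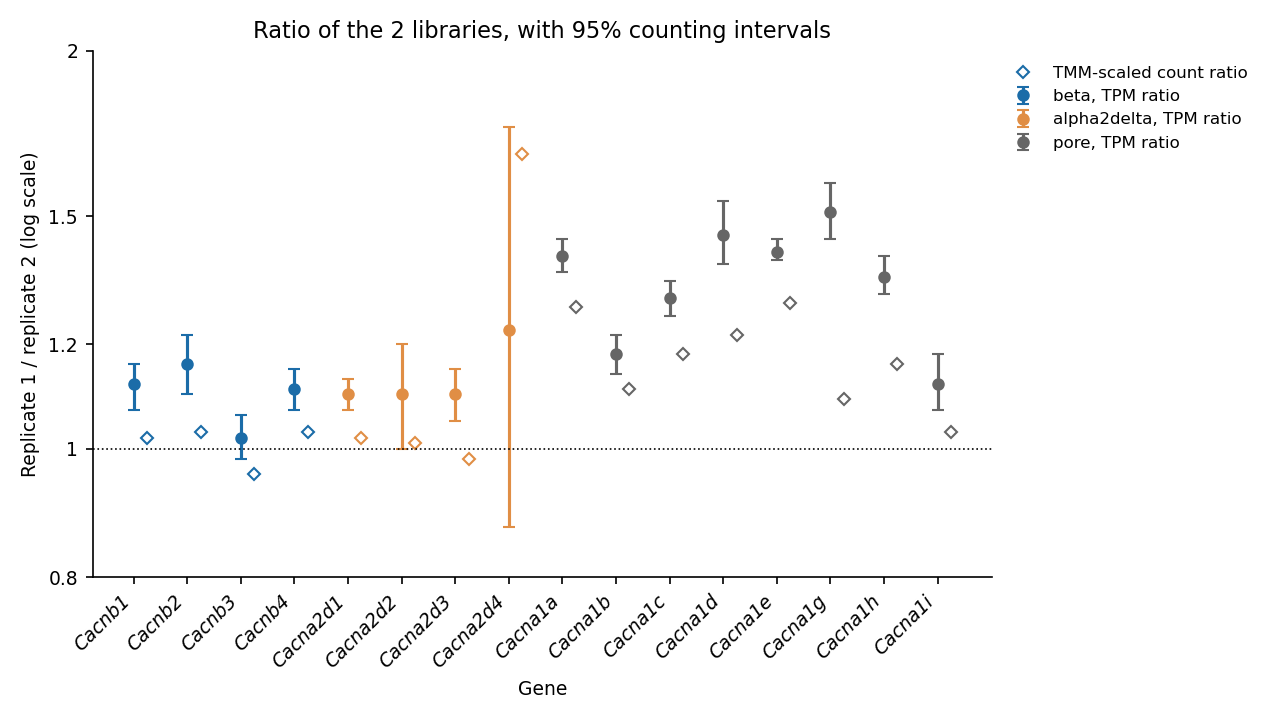
Ratio of replicate 1 over replicate 2 on a log axis for the 8 auxiliary genes and 8 pore genes, as TPM (filled, with 95% counting intervals) and as TMM-scaled counts (open diamonds). The auxiliary genes other than Cacna2d4 lie between 1.02 and 1.16 in TPM, with Cacnb3 and Cacna2d3 below 1 by TMM, and 7 of the 8 pore genes lie above 1.16 in TPM.

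Transcripts annotated as retained introns also differed between the libraries in the table with expected counts. Their share of a gene's TPM had a median of 11.4% in replicate 1 and 8.29% in replicate 2. These medians cover 7052 protein-coding genes with at least 200 counts and such a transcript above 0. The share was higher in replicate 1 for 79.2% of them. Of the 6 auxiliary genes with such transcripts, 5 had the higher share in replicate 1, and the other was Cacna2d4, below that count. The part of such transcripts in the difference between the libraries was not tested. The 24 retained-intron transcripts summed to 26.6 TPM in replicate 1 and 16.6 TPM in replicate 2. In the second quantification they summed to 48.5 and 35.1 TPM.

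Cacnb2 carried the largest part of this RNA, 11.6 TPM in replicate 1 and 7.86 TPM in replicate 2. Its retained-intron transcripts, 10 of 16 annotated, made up 31.2% of its TPM in replicate 1 and 24.5% in replicate 2, against 3.72% and 2.25% for Cacnb3. For Cacna2d3 the shares were 13.2% and 8.01%, and for Cacna2d1 they were 9.12% and 5.76%. Cacna2d4, at its few counts, had 21.3% and 26.9%. Cacnb1 and Cacnb4 have no transcript of this class. Cacnb2 also overlaps 5 unclassified gene models on its own strand that share no exon bases with it, picked out after their values were seen. Gm37006 was at 2.5 TPM in replicate 1 and 0.75 TPM in replicate 2 (155 and 58 counts), and Gm37891 at 1.8 and 1.55 (53 and 57 counts). No share over all such models was computed, so no direction is drawn from them. In the second quantification the retained-intron share of Cacnb2 was 31.4% in replicate 1 and 33.1% in replicate 2, the other way round. The share of Cacna2d2 turned too, from 3.21% and 2.64% to 3.5% and 11.4% in the second quantification. In that quantification, 3 of the 6 genes had the higher share in replicate 1. The proportion over all genes was not computed there, so no direction is drawn from that count.

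**Figure D4:**
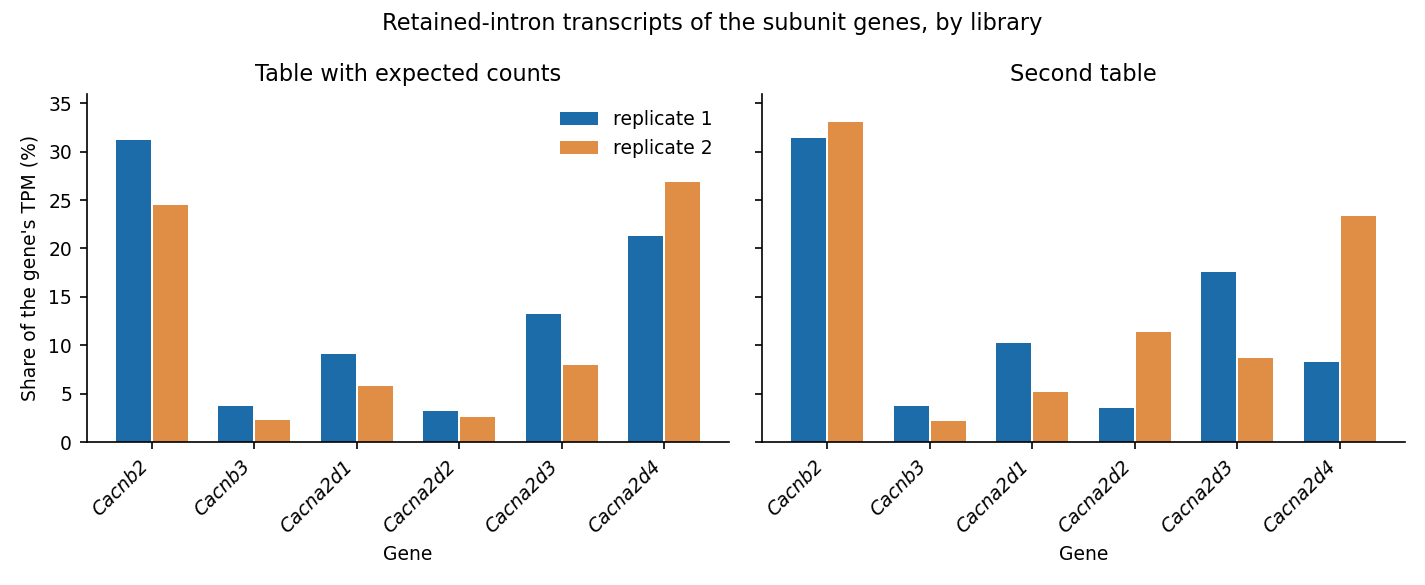
Share of each gene's TPM in transcripts annotated as retained introns, for the 6 auxiliary genes that have any, with replicate 1 left of replicate 2 and one panel per quantification. In the table with expected counts Cacnb2 is highest in replicate 1 at 31.2% and Cacna2d4 in replicate 2 at 26.9%. In the second table the order of the libraries turns for Cacnb2 and Cacna2d2.

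In the table with expected counts, the transcript that led each gene was protein coding for all 8 genes. Of protein-coding genes with several transcripts and at least 200 counts, 93.1% had such a leader. Cacna2d4 falls below that count. Which transcript led, however, depended on the quantification. It was the same in both deposited tables for 3 of the 8 genes (Cacnb1, Cacnb2 and Cacna2d3), all 3 among the 7 with at least 200 counts. Of genes with at least 200 counts and 2 or more transcripts, 76.9% kept theirs. The 7 members have 6 to 16 transcripts each, and genes with as many were not set apart. Gene levels were thus ordered alike by both tables, and transcript shares were not. Groups of transcripts by coding start or exon, below, were drawn after the transcripts had been seen, and transcripts named for an exon they carry were too.

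Cacnb1 was the plainest case. Cacnb1-201, of 597 codons, held 74.47% of the gene's TPM in replicate 1 and 78.51% in replicate 2, and 71.8% and 76.1% in the second quantification. Cacnb1-205, of 479 codons, held 16.73% and 15.33%. These 2 forms share their first 1333 coding bases and then end in different C-terminal parts, of which Cacnb1-201 has 458 bases of its own and Cacnb1-205 has 104. The bases where they part are shown in capitals after 15 shared ones, on the minus strand of chr11:98003257-98003361 for Cacnb1-201, whose own part runs on, and of chr11:98005024-98005127 for Cacnb1-205:
Cacnb1-201: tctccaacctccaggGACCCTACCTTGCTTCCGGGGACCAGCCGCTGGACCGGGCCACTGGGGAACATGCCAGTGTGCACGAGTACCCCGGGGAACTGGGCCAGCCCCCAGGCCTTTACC
Cacnb1-205: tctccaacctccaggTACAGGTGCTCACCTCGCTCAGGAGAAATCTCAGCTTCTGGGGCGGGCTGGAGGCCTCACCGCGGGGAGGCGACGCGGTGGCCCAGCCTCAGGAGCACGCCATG

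The transcript with the coding length of the skeletal muscle form, Cacnb1-202 with 524 codons, was listed at 0 TPM in both libraries. That form carries an internal exon of 155 bases where Cacnb1-201 and Cacnb1-205 carry one of 20 bases. The 20-base exon was in 96.3% and 96.5% of the gene's complete coding RNA, and in 91.5% and 92.6% by the second quantification. The 155-base exon was in 3.75% and 3.54%, all of it from Cacnb1-204, and in 8.45% and 7.37% by the second quantification. Both tables thus placed most of the complete coding RNA of Cacnb1 in the forms with the short exon.

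In Cacnb3 the tables named different leading forms. Cacnb3-206, of 484 codons, held 62.38% of the gene's TPM in replicate 1 and 62.84% in replicate 2. In the second quantification it held 0.0462% and 0%, and Cacnb3-202, of 483 codons, led with 55.9% and 58.6%, where the table with expected counts had given that form 16.61% and 18.53%. In replicate 1 the deposited TPM interval of Cacnb3-206 ran from 45.7 to 58.7 TPM and that of Cacnb3-202 from 8.86 to 19.3, so the intervals of the table with expected counts were far apart. Cacnb3-201, which has the first coding exon of Cacnb3-206, held 16.76% and 16.38%, and 39.4% and 38.8% in the second quantification. The start shared by Cacnb3-201 and Cacnb3-206 thus held 82.7% and 81% of complete coding RNA. In the second quantification it held 41.4% and 39.9%. The libraries agreed closely within each table, so the disagreement lay between the quantifications.

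A further Cacnb3 form, Cacnb3-201, lacks an internal exon of 81 bases (chr15:98641177-98641257, plus strand). That exon, in capitals between 15 coding bases on either side, reads:
Cacnb3-202: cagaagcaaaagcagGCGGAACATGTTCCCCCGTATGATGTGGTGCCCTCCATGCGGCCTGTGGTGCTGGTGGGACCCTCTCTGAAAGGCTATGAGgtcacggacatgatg
The 81-base exon has a counterpart of the same length in the leading transcript of each other beta gene, with 63 of 81 bases shared with Cacnb1 and 65 of 81 with Cacnb2 and with Cacnb4. It was in 82.5% and 83.3% of the complete coding RNA of Cacnb3, and in 58.6% and 60.1% by the second quantification. Leaving it out removes a whole number of codons, 27.

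Cacnb4 was spread over 3 coding forms. Cacnb4-203, of 473 codons, held 38.93% of the gene's TPM in replicate 1 and 36.17% in replicate 2, Cacnb4-202, of 486 codons, 23.59% and 22.47%, and Cacnb4-201, of 519 codons, 20.37% and 24.98%. In the second quantification Cacnb4-202 led with 41.6% and 42.9%. The distal start shared by Cacnb4-201 and Cacnb4-206 was the part on which both tables came close. It held 24.6% and 30.3% of complete coding RNA in the table with expected counts, and 25.6% and 28.5% in the second. Cacnb4-205, a fragment of 208 bases that is not coding, held 15.96% and 15.19% of TPM from 14 and 15 counts, and was listed at 0 in the second table. The antisense gene A430018G15Rik shares 1433 exon bases with Cacnb4, at 0.5 and 0.59 TPM.

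In Cacnb2 both tables were led by the same form, with different shares. Cacnb2-203, of 655 codons, held 43.12% of TPM in replicate 1 and 53.38% in replicate 2, and 27.8% and 34.2% in the second quantification. Cacnb2-210, which is annotated as not coding, held 12.54% and 11.06%. The form from the other start shown above, Cacnb2-202 of 611 codons, held 3.84% and 0.83%, but 20.2% and 19.6% in the second table. Protein-coding transcripts together made up 56.2% and 64.4% of Cacnb2 RNA, the lowest such share among the 7 genes with at least 200 counts.

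**Figure D5:**
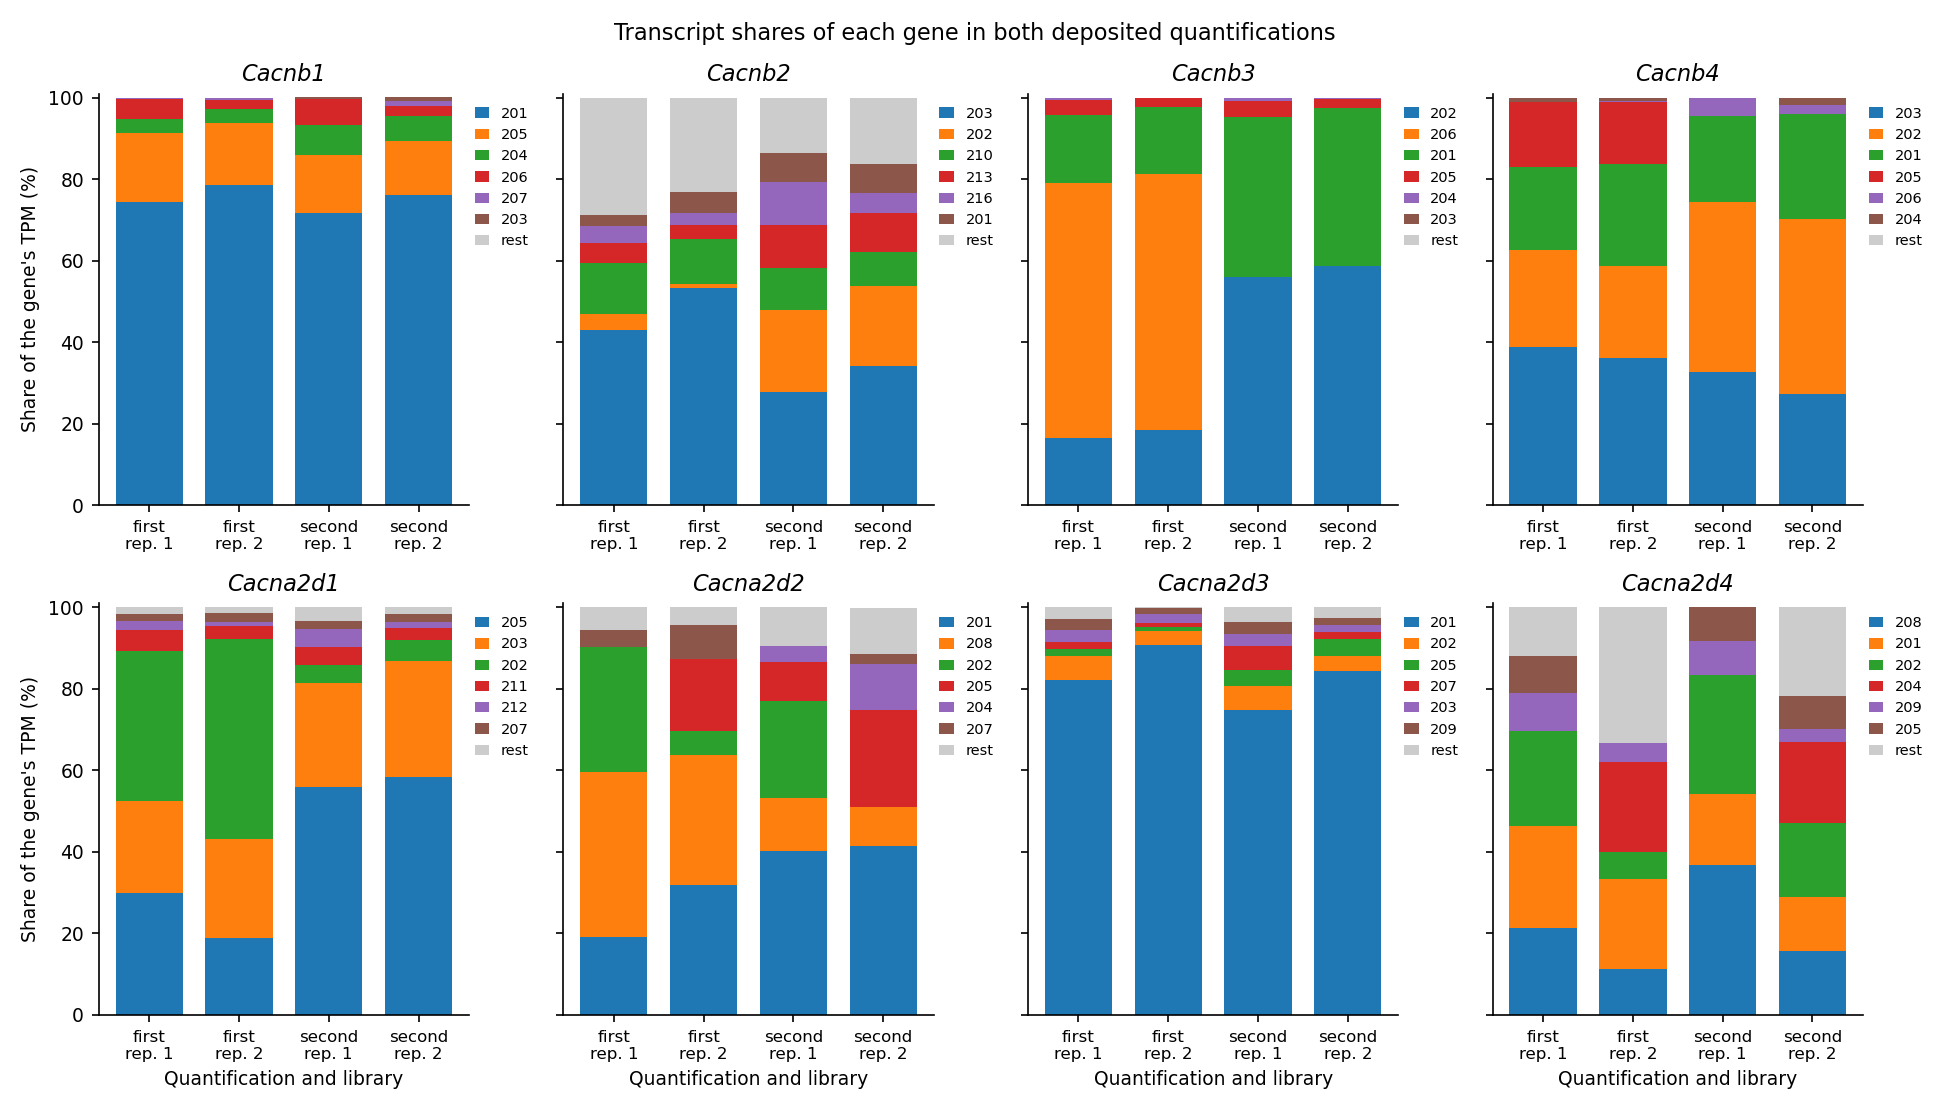
Share of each gene's TPM per transcript, stacked, for replicates 1 and 2 in the table with expected counts (first) and in the second deposited table; numbers in the legends are transcript suffixes, and grey is every transcript beyond the 6 of highest mean share. Cacnb1 and Cacna2d3 look alike across all 4 bars, while Cacnb3-206 fills 62.38% and 62.84% of the first pair of bars and almost none of the second pair.

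Cacna2d1 differed between tables in a short stretch of coding sequence. Its 3 main forms are the same up to an insertion of 21 bases or 7 codons, which Cacna2d1-203 takes from an exon at chr5:16341990-16342010 and Cacna2d1-205 from annotated pieces of 4, 9 and 8 bases around it, and which Cacna2d1-202 lacks. The form described from brain contains a 21-base exon there and lacks a 57-base exon upstream, while the skeletal muscle form has the reverse. The insertions are in capitals, between 24 coding bases on either side, on the plus strand within chr5:16340760-16342706:
Cacna2d1-203: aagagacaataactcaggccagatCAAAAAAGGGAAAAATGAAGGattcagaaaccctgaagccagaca
Cacna2d1-205: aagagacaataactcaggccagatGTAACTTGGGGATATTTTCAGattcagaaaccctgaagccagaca
Cacna2d1-202: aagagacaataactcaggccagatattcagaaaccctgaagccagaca

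The insertions of Cacna2d1-203 and Cacna2d1-205 hold the same base at 9 of 21 positions, and the rest of their coding sequences is identical. By the table with expected counts, Cacna2d1-202 held 36.71% of the gene's TPM in replicate 1 and 49.02% in replicate 2, Cacna2d1-205 held 29.87% and 18.92%, and Cacna2d1-203 held 22.59% and 24.14%. By the second quantification Cacna2d1-202 held 4.57% and 5.01%, Cacna2d1-205 55.9% and 58.3%, and Cacna2d1-203 25.4% and 28.6%. The share of Cacna2d1-203 was thus close in both tables, and what moved was the division between Cacna2d1-202 and Cacna2d1-205.

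Those 2 forms end in a long last exon, of 3947 bases in Cacna2d1-202 and 3954 in Cacna2d1-205, and Cacna2d1-203 ends in one of 494. The groups that follow hold the coding forms that run to the shared stop codon and leave out Cacna2d1-207, of 100 codons, which was 1.91% and 2.32% of the complete coding RNA. Grouped by the last exon, this RNA was alike in both tables: the long form held 74.7% in replicate 1 and 73.8% in replicate 2, and 68.9% and 68.2% in the second quantification. Grouped by the insertion, it was not: forms with none held 41.2% and 53.2%, but 5.87% and 5.69% in the second table. The 57-base exon, present in Cacna2d1-201 alone, was at 0 in both libraries, and in 0.647% and 0.286% of all complete coding RNA, Cacna2d1-207 included, by the second table.

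Cacna2d2 has a 21-base exon at chr9:107519179-107519199, plus strand, between coding bases that precede and follow it here:
Cacna2d2-205: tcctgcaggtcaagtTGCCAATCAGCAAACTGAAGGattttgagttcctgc
It matches the 21-base exon of Cacna2d1-203 in length and at 12 of 21 positions. It was in 34.2% of the complete coding RNA in replicate 1 and 26.4% in replicate 2, and in 41.3% and 40.9% by the second quantification. Single forms of Cacna2d2 were not stable between libraries at 876 and 1020 counts. Cacna2d2-208 held 40.37% and 31.82%, Cacna2d2-201 held 19.11% and 31.88%, and Cacna2d2-202 held 30.8% and 6.02%, so the leading form was Cacna2d2-208 in replicate 1 and Cacna2d2-201 in replicate 2. The second table was led by Cacna2d2-201 in both libraries, at 40.2% and 41.5%.

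Cacna2d3 had a single dominant form. Cacna2d3-201, of 1091 codons, held 82.19% in replicate 1 and 90.67% in replicate 2, and 74.8% and 84.4% by the second quantification. In Cacna2d4 the TPM was divided among several forms. Its full-length coding form, Cacna2d4-201, led by the mean of both libraries with 24.87% and 22.03%, and all its coding transcripts together made up 33.9% and 22.1%. Forms annotated as not coding were Cacna2d4-208 at 21.41% and 11.21%, Cacna2d4-202 at 23.43% and 6.64%, and Cacna2d4-204 at 0% and 22.13%. Of the gene's 84 and 59 counts, Cacna2d4-201 (5803 bases) held 43.24 and 38.92, and Cacna2d4-208 (2578 bases) held 16.17 and 8.61. Cacna2d4-202 (761 bases) held 4.73 and 1.36, and Cacna2d4-204 (419 bases) held 0 and 2.19. The TPM shares of these short forms thus rest on a handful of reads each. In the second table Cacna2d4-208 led by the mean of both libraries, and Cacna2d4-203 led in replicate 2.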

How the data were processed

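Per the labels, libraries came from total RNA with spike-ins of a profile for stranded, ribosome-reduced libraries. The authors deposited RSEM-format gene and transcript tables of each library with expected counts, TPM and each transcript's percent of the TPM of its gene. The TPM bounds in the same tables, a score of the quantifier, were used as deposited to give the interval of 2 transcripts. Another deposited table, in kallisto format, lists estimated counts and TPM per transcript, which were summed per gene and are called the second quantification. Build mm10 and annotation GENCODE M21 stand in the deposited notes, and tool versions were not given in the sources used here. Names, classes, exons and sequences were read from GENCODE M21. Rows that are not annotated genes, 0.376% and 0.429% of counts in replicates 1 and 2, were left out of ratios.

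Levels are TPM as deposited. Libraries were compared for genes reaching 200 counts over both, with a floor of 3 counts. Clopper-Pearson 95% intervals of rounded counts were scaled to the TPM ratio. edgeR 4.0.16 gave TMM factors (counts rounded, at least 20 per gene) and DESeq2 1.42.0 gave size factors. The rule for ratios was checked on simulated data. Coding sequences were aligned globally with Biopython 1.88. Complete coding RNA means protein-coding transcripts with an annotated start and stop. Python 3.11.15, pandas 2.3.3, numpy 2.4.6 and matplotlib 3.10.9 did the rest. Members and lists were chosen with earlier results of these data known. All 8 genes are named, and transcripts that lead a table or hold at least 10% of a gene's TPM.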

Additional observations from a re-analysis of the deposited data

How the results depend on the processing

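No paired analysis was possible because there is one group. Sums moved with the unit: the beta sum of 211.2 TPM was 329.4 in the second quantification, 186.9 from protein-coding transcripts alone and 494.5 rescaled over nuclear protein-coding genes, and the alpha2delta sum of 108.6 TPM was 174.8, 97.4 and 254.2. From protein-coding transcripts alone the share of Cacnb3 was 44.3%, that of Cacna2d1 55.53% (52.31% in the second quantification), and RNA per pore TPM was 1.119 for beta and 0.5829 for alpha2delta. Each replicate alone gave beta sums of 202.9 to 219.4 and alpha2delta sums of 103.4 to 113.7 TPM, shares of 39.38 to 41.75% and 53.82 to 53.9%, and ratios to pores of 0.7633 to 0.9639 and 0.3957 to 0.4913. The count of members past 2-fold stayed 0 under all 7 alternatives, that of protein-coding leaders was 7 of 8 in the second quantification, and that of shared leaders was 3 or 4 of 8 with either replicate alone. The cause of these moves was not tested. The depth of Cacna2d4, 143 counts over both libraries, limits its ratio and transcript shares. Allelic differences of the F1 hybrid from the reference were not analysed here.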
